A study of Caenorhabditis elegans with 9 samples.

Results

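The genes described here make and handle the peptides that neurons and gland-like cells secrete from dense-core vesicles. There are 8 of them among 17118 genes that the arrays measured. Their choice was by name from knowledge of the pathway, with earlier results of these data known. They were read by 21 probe sets annotated to these genes alone, of 20766 such probe sets in all. Of the 8 genes, 4 had a single probe set (egl-21, sbt-1, unc-31 and aex-5), egl-3 and ida-1 had 2 each, kpc-1 had 4 and bli-4 had 9. All 8 lie on autosomes: bli-4, kpc-1 and aex-5 on chromosome I, ida-1 on III, egl-21 and unc-31 on IV, and egl-3 and sbt-1 on V.

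Neuropeptides are made as long precursors that enter the secretory pathway and are packed into dense-core vesicles. There, a proprotein convertase cuts the precursor after pairs of basic residues, a carboxypeptidase trims the basic residues left at the new end, and many peptides are then amidated. The vesicles are released by regulated fusion with the plasma membrane, for which they need a priming factor of their own. Convertases of the same family also act outside the nervous system, where they mature secreted and membrane proteins of the intestine and the epidermis.

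Total RNA came from mixed-stage embryos of XX animals of the nematode Caenorhabditis elegans, with 3 Affymetrix arrays for each of 3 groups. Control embryos had wild-type (N2) mothers that fed for about 96 hours on bacteria with L4440, the empty RNAi vector. The mothers of smo-1 RNAi embryos were also N2 and fed on bacteria that make double-stranded RNA to silence smo-1, which encodes the ubiquitin-like protein SUMO. Mothers of the third group, called sdc-2(y93)+RNAi here, carried the y93 allele of sdc-2, a gene needed for X-chromosome dosage compensation. Their characteristics name sdc-2 as the RNAi target, whereas the growth protocol names a plasmid against smo-1 alone for both RNAi groups. The larvae of both perturbed groups were on HB101 bacteria for 24 hours and on RNAi plates for 72 hours. Control animals spent 0 hours on HB101, so feeding history and perturbation cannot be told apart in any comparison with control. All animals were kept at 20 °C. RNAi by feeding leaves part of the messenger, and whole embryos were used, so fewer cells of a type and less RNA per cell cannot be told apart in any value below.

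Values are log2 levels made by RMA, so a difference of 1 is a doubling. The targeted gene smo-1 differed from control by -3.67 ± 0.17 in smo-1 RNAi embryos (SE, limma adjusted p = 6.5e-08) and by -1.05 ± 0.17 in sdc-2(y93)+RNAi embryos (adjusted p = 0.00094). For sdc-2 these differences were -0.12 ± 0.16 and -0.35 ± 0.16 (limma, adjusted p of 0.63 and 0.14). The 32 negative control probe sets, for bacterial and yeast transcripts, lay between 4.50 and 6.39 with a median of 4.96, which shows where a level carries no signal. Hybridisation controls, added to the labelled material, had a median of 9.06 on the sdc-2(y93)+RNAi arrays against 5.30 on control and 5.13 on smo-1 RNAi arrays, so the handling of the arrays and the sdc-2(y93)+RNAi group cannot be told apart. The excess of 3′ over 5′ probe sets, which reads how intact the RNA was, differed from control by 0.66 for actin, 0.32 for ubiquitin, 0.86 for catalase and -0.26 for GAPDH on smo-1 RNAi arrays. On sdc-2(y93)+RNAi arrays these differences were 0.81, 0.34, -0.08 and 0.52, each with an exact two-sided permutation p of 0.1, the smallest possible, except 0.6 for catalase. The part of RNA quality in the results was not tested. Whether replicates are separate cultures is not said in the labels. Each p-value therefore sets a difference only against the scatter of these samples, and that scatter may be technical.

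In smo-1 RNAi embryos the genes egl-3, egl-21, sbt-1 and ida-1 were higher than in control embryos. The remaining convertase genes, aex-5, kpc-1 and bli-4, differed among themselves. The convertase gene egl-3 was 4.22-fold higher, the carboxypeptidase gene egl-21 3.40-fold, the convertase chaperone gene sbt-1 2.41-fold and the vesicle membrane gene ida-1 1.97-fold. The intestinal convertase gene aex-5 also rose, by 1.67-fold, while kpc-1 and bli-4 fell by 1.44-fold and 1.42-fold. In all, 5 of 8 genes rose and 2 fell at a limma adjusted p of 0.05. Over all genes tested, 17.8% rose and 22.2% fell in this comparison, and among the 8559 genes above the median level of 6.65 the shares were 22.5% and 38.2%. Among autosomal genes 15.0% rose and 23.8% fell. Setting the autosomal median of every array to the same value moved the median difference of all genes by -0.13 and gave 14% higher and 30.2% lower. When the median of the bright autosomal genes, those whose level exceeds 6.65, was set to the same value instead, it moved by 0.20 and the shares became 29.0% and 14.6%. The 5 genes that rose did so under both of these scalings.

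In sdc-2(y93)+RNAi embryos 0 of these 8 genes rose past the limma threshold and 1, bli-4, fell. The same comparison called 10.9% of all genes higher and 15.6% lower, and 6.75% and 17.8% of autosomal genes. Scaling to the bright autosomal genes moved the median of all genes by 0.26 and gave 40.3% higher and 8.65% lower. At an unadjusted p of 0.05 a further 2 genes, egl-3 and kpc-1, stood higher, by 0.37 and 0.41. The control arrays are shared by both comparisons, so their values are given side by side and the groups were also set against each other directly. Compared directly, smo-1 RNAi embryos had higher levels than sdc-2(y93)+RNAi embryos for 5 genes and a lower level for 1, kpc-1, where 18.4% of all genes were higher and 17.2% lower. The median log2 difference over the 8 genes was 0.86 in smo-1 RNAi and -0.02 in sdc-2(y93)+RNAi embryos against control, with medians over all genes of -0.002 and 0.02.

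**Figure D1:**
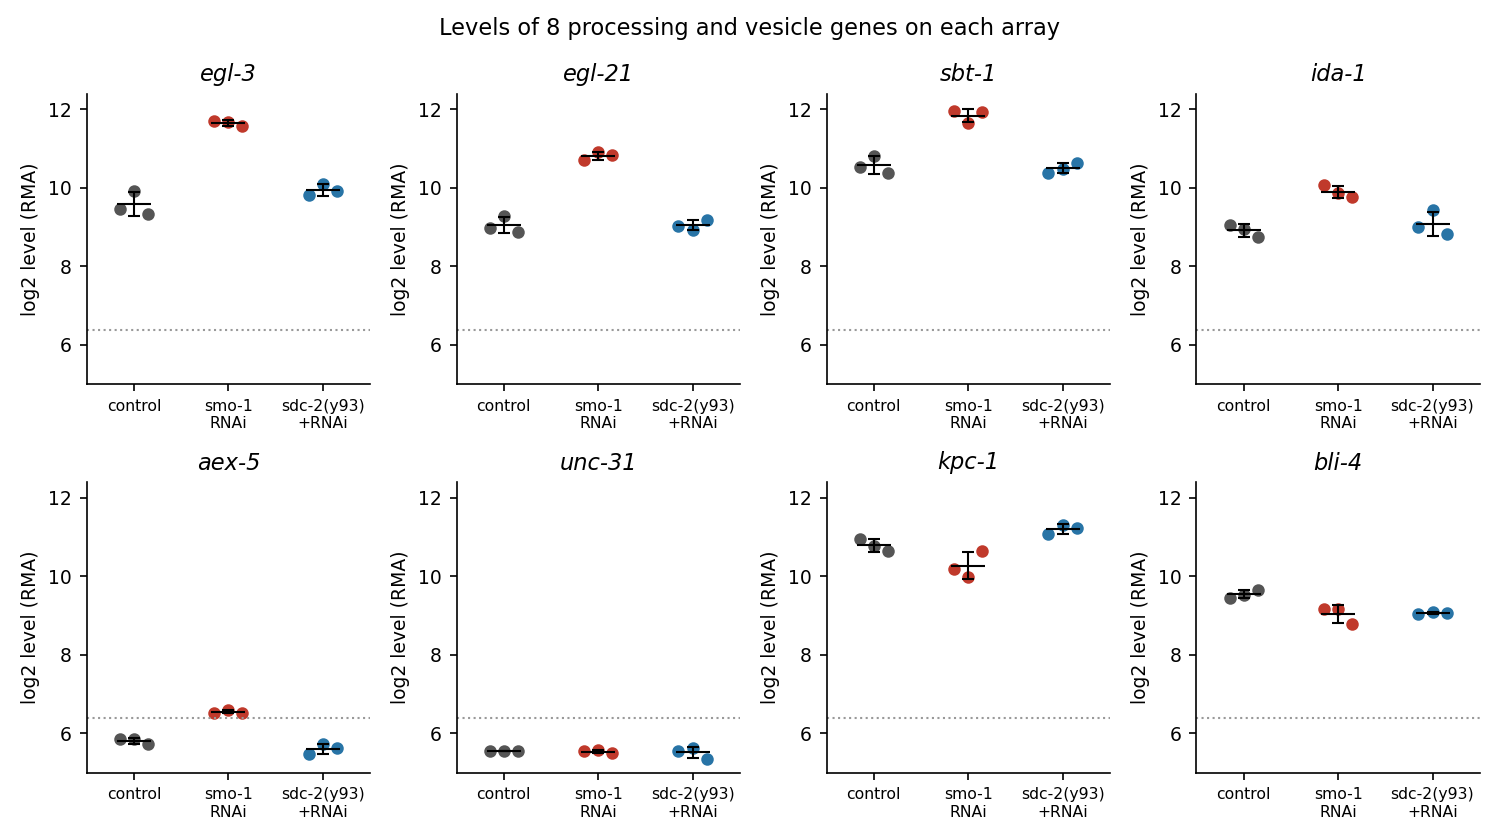
Log2 RMA level (y axis) of the probe set that represents each of the 8 genes on every array, by group (x axis). Points are single arrays in the order of their replicate numbers, bars are the mean ± SD of 3 arrays, and the dotted line marks 6.39, the highest level of any negative control probe set. The 3 smo-1 RNAi arrays stand above all others for egl-3, egl-21, sbt-1, ida-1 and aex-5, and all 9 arrays lie under the line for unc-31.

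The gene egl-3 encodes the worm counterpart of the mammalian proprotein convertase PC2, which makes the first cut in most neuropeptide precursors. Its level was 9.47, 9.93 and 9.33 on the control arrays, 11.71, 11.68 and 11.58 on the smo-1 RNAi arrays and 9.81, 10.10 and 9.92 on the sdc-2(y93)+RNAi arrays. Every smo-1 RNAi array lay above every other array, while the sdc-2(y93)+RNAi arrays overlapped with control. The difference from control was 2.08 ± 0.15 in smo-1 RNAi embryos (SE, limma adjusted p = 1.5e-06) and 0.37 ± 0.15 in sdc-2(y93)+RNAi embryos (adjusted p = 0.095). Without control replicate 2, the highest of the control arrays, the latter became 0.54 with an adjusted p of 0.0084. It also passed the threshold with array weights (0.40, adjusted p = 0.035) and when scaled to autosomal genes (0.43, 0.041) or to the bright ones (0.63, 0.011). The second probe set of egl-3 also rose in smo-1 RNAi embryos, by 1.78 ± 0.14 (limma adjusted p over all probe sets 4e-06), from 7.69 ± 0.31 (SD, n = 3) to 9.47 ± 0.07 (n = 3). The same probe set differed in sdc-2(y93)+RNAi embryos by 0.13 ± 0.14.

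The gene sbt-1 encodes the counterpart of the mammalian protein 7B2, a chaperone that the PC2 type of convertase needs to become active. Its level was 10.53, 10.82 and 10.38 on control arrays, 11.95, 11.65 and 11.93 on smo-1 RNAi arrays and 10.38, 10.48 and 10.63 on sdc-2(y93)+RNAi arrays. The smo-1 RNAi arrays did not overlap those of either other group, which overlapped each other. The difference from control was 1.27 ± 0.13 in smo-1 RNAi embryos (limma adjusted p = 2.5e-05) and -0.08 ± 0.13 in sdc-2(y93)+RNAi embryos (adjusted p = 0.75, 95% interval -0.37 to 0.22). Both the convertase gene egl-3 and the gene of its chaperone therefore rose in smo-1 RNAi embryos, and the gap between their log2 differences was not tested.

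The gene egl-21 encodes a carboxypeptidase of the E type, which removes the basic residues that the convertase leaves behind. Its level was 8.98, 9.29 and 8.87 on control arrays, 10.70, 10.90 and 10.84 on smo-1 RNAi arrays and 9.04, 8.93 and 9.18 on sdc-2(y93)+RNAi arrays. All 3 smo-1 RNAi arrays stood above the 6 others, and the other two groups lay within the same range. The difference from control was 1.77 ± 0.12 in smo-1 RNAi embryos (limma adjusted p = 1.2e-06) and 0.00 ± 0.12 in sdc-2(y93)+RNAi embryos (adjusted p = 0.99, 95% interval -0.26 to 0.27). The probe sets of egl-21 and sbt-1 carry the manufacturer's _s_at suffix, given to probe sets that can match several transcripts. That of aex-5 carries it too, and those of ida-1 carry _x_at or _s_at, so these genes have no probe set without a suffix for related transcripts. Of the genes that rose in smo-1 RNAi embryos, only egl-3 has one.

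The gene ida-1 encodes a membrane protein of dense-core vesicles related to the mammalian tyrosine phosphatase-like protein IA-2. On its brighter probe set the levels were 9.06, 8.96 and 8.74 in control, 10.06, 9.87 and 9.76 in smo-1 RNAi and 8.99, 9.43 and 8.82 in sdc-2(y93)+RNAi embryos. The smo-1 RNAi arrays were again the highest, and 1 array, sdc-2(y93)+RNAi replicate 2, stood above the rest of its group. The difference from control was 0.97 ± 0.16 in smo-1 RNAi embryos (limma adjusted p = 0.00053) and 0.16 ± 0.16 in sdc-2(y93)+RNAi embryos (adjusted p = 0.55). The other probe set gave 0.81 ± 0.11 and 0.01 ± 0.11, and its sdc-2(y93)+RNAi level was 8.92 ± 0.13 (SD, n = 3).

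The gene unc-31 encodes the counterpart of the mammalian priming factor CAPS, which dense-core vesicles need for release. Its probe set lay between 5.36 and 5.63 on the 9 arrays, below the highest negative control on each of them. Its differences were -0.01 ± 0.09 in smo-1 RNAi and -0.04 ± 0.09 in sdc-2(y93)+RNAi embryos (adjusted p by limma of 0.95 and 0.83). A level in the range of the negative controls does not show whether the messenger changed.

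The gene aex-5 encodes a convertase known from the intestine, where it is needed for a peptide signal that drives the enteric muscle step of defecation. Its level was low, at 5.87, 5.85 and 5.72 in control, 6.53, 6.60 and 6.52 in smo-1 RNAi and 5.47, 5.72 and 5.64 in sdc-2(y93)+RNAi embryos. Only the 3 smo-1 RNAi arrays stood above the highest negative control, and they did not overlap the other arrays. The difference from control was 0.74 ± 0.09 in smo-1 RNAi embryos (limma adjusted p = 9.5e-05) and -0.20 ± 0.09 in sdc-2(y93)+RNAi embryos (adjusted p = 0.15). The control arrays lay in the range of the negative controls, so the 1.67-fold difference starts from a level that may hold no signal.

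The gene kpc-1 encodes a furin-like convertase known from the shaping of dendrites, and its probe sets disagreed in sdc-2(y93)+RNAi embryos. On the brightest probe set the levels were 10.96, 10.78 and 10.64 in control, 10.18, 9.98 and 10.65 in smo-1 RNAi and 11.07, 11.31 and 11.23 in sdc-2(y93)+RNAi embryos. Replicate 3 of smo-1 RNAi overlapped with control, and the sdc-2(y93)+RNAi arrays were all above control. The differences from control were -0.52 ± 0.16 in smo-1 RNAi embryos (limma adjusted p = 0.023) and 0.41 ± 0.16 in sdc-2(y93)+RNAi embryos (adjusted p = 0.092). The smo-1 RNAi call was lost without control replicate 1 or 2 or smo-1 RNAi replicate 1 or 2, with adjusted p of 0.093, 0.053, 0.074 and 0.095, and when scaled to the bright autosomal genes (-0.32, adjusted p = 0.13). For sdc-2(y93)+RNAi embryos kpc-1 passed the threshold without smo-1 RNAi replicate 3, which enters the shared estimate of spread (adjusted p = 0.029), with only the 6 arrays compared (0.036), among genes above the median level (0.046) and scaled to the bright autosomal genes (0.67, adjusted p = 0.0098).

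The other 3 probe sets of kpc-1 fell in both groups. In smo-1 RNAi embryos all 4 probe sets of kpc-1 were lower, by log2 differences from -1.12 to -0.52, in a comparison that called 24.6% of probe sets lower and 17.2% higher. In sdc-2(y93)+RNAi embryos the other 3 differed by -0.53 ± 0.11, -0.52 ± 0.14 and -0.68 ± 0.13 (limma adjusted p over all probe sets 0.0052, 0.02 and 0.0024), where 16.9% of probe sets were called lower and 11.6% higher. The brightest probe set changed by 1.09 more than the one with the strongest fall in sdc-2(y93)+RNAi embryos (exact two-sided permutation p = 0.1, the smallest that 3 against 3 arrays allow). With the mean of all its probe sets kpc-1 was lower there by 0.33 (-0.33, limma adjusted p = 0.02), so the direction of kpc-1 in sdc-2(y93)+RNAi embryos turned on the choice of probe set. The part of the transcript that each probe set reads is not given in the sources used here.

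The gene bli-4 encodes a convertase of several isoforms that is known for the maturation of cuticle collagens in the epidermis. On its brightest probe set the levels were 9.46, 9.53 and 9.64 in control, 9.16, 9.17 and 8.78 in smo-1 RNAi and 9.04, 9.10 and 9.07 in sdc-2(y93)+RNAi embryos. Both perturbed groups lay below all control arrays and overlapped each other. The differences from control were -0.51 ± 0.11 (limma adjusted p = 0.0043) and -0.48 ± 0.11 (adjusted p = 0.0097), and between the perturbed groups -0.03 ± 0.11 (adjusted p = 0.88, 95% interval -0.28 to 0.22). Both calls were lost under scaling to the bright autosomal genes, at -0.31 (adjusted p = 0.07) and -0.22 (0.16).

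Of the 9 probe sets of bli-4, 7 fell and 0 rose under smo-1 RNAi, with differences from -0.91 to -0.17 over all 9, and 6 fell and 1 rose in sdc-2(y93)+RNAi embryos, with differences from -0.84 to 0.64. The 1 that rose is the only probe set of bli-4 without a suffix for related transcripts. It read 8.52, 8.33 and 8.67 in control, 7.97, 7.96 and 8.02 in smo-1 RNAi and 9.06, 9.13 and 9.26 in sdc-2(y93)+RNAi embryos, so the 3 groups did not overlap. Its differences from control were -0.52 ± 0.10 in smo-1 RNAi (limma adjusted p over all probe sets 0.0019) and 0.64 ± 0.10 in sdc-2(y93)+RNAi embryos (adjusted p = 0.00094). Set against the brightest probe set of bli-4, it changed by 1.12 more in sdc-2(y93)+RNAi embryos (exact two-sided permutation p = 0.1) and by -0.01 in smo-1 RNAi embryos (p = 0.9). In smo-1 RNAi against sdc-2(y93)+RNAi embryos the probe set without a suffix differed by -1.17 ± 0.10 (limma adjusted p over all probe sets 1e-05). Over all 9 probe sets these differences ranged from -1.17 to 0.20. There, 2 were called lower and 0 higher, beside 18.9% and 17.7% of all probe sets. The dimmest probe set lay below the highest negative control on all arrays.

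**Figure D2:**
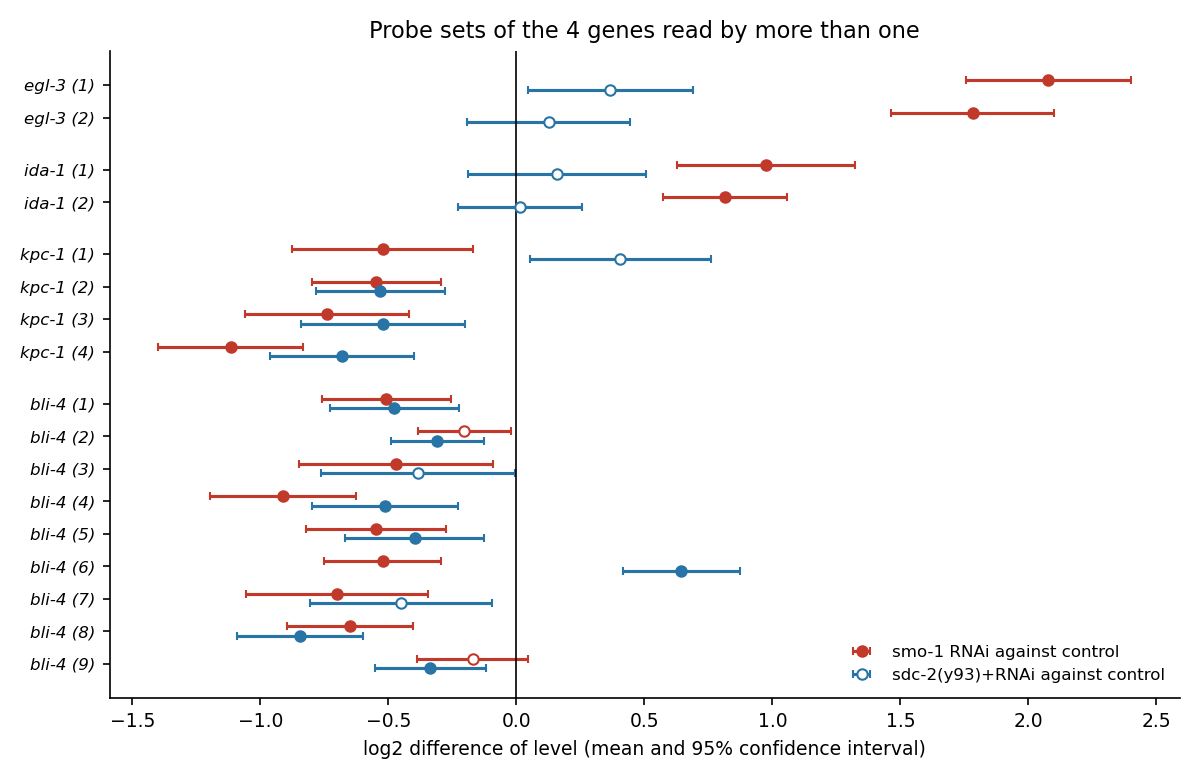
Log2 difference from control (x axis, mean and 95% confidence interval of the limma fit over all probe sets) of every probe set of the 4 genes that have more than 1, numbered from the brightest (y axis), in smo-1 RNAi (red) and sdc-2(y93)+RNAi (blue) embryos. Filled points passed an adjusted p of 0.05. Both probe sets of egl-3, and both of ida-1, passed the threshold in smo-1 RNAi embryos, while kpc-1 (1) at 0.41 and bli-4 (6) at 0.64 lay opposite to the other probe sets of their genes in sdc-2(y93)+RNAi embryos.

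The perturbed groups were also compared with each other. The levels in smo-1 RNAi embryos were above those in sdc-2(y93)+RNAi embryos by 1.71 ± 0.15 for egl-3, 1.76 ± 0.12 for egl-21, 1.34 ± 0.13 for sbt-1, 0.82 ± 0.16 for ida-1 and 0.94 ± 0.09 for aex-5. The limma adjusted p of these genes lay between 2e-06 for egl-21 and 0.002 for ida-1. All sdc-2(y93)+RNAi arrays of aex-5 lay in the range of the negative controls, so its value is no exact difference of messenger levels. For kpc-1 the difference was -0.93 ± 0.16 (adjusted p = 0.00095), but its 4 probe sets ranged from -0.93 to -0.02 and 2 of them were called lower, as were 18.9% of all probe sets, with 17.7% called higher. The arrays did not overlap for these 6 genes, as was the case for 21.7% of all genes upward and 21.2% downward. Against control, 5 of the 8 genes were higher and 1 lower without overlap in smo-1 RNAi embryos, beside 25.8% and 29.3% of all genes. For sdc-2(y93)+RNAi against control the share of all genes without overlap was not counted. The lack of overlap described there for kpc-1 and bli-4 therefore has no such share beside it.

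**Figure D3:**
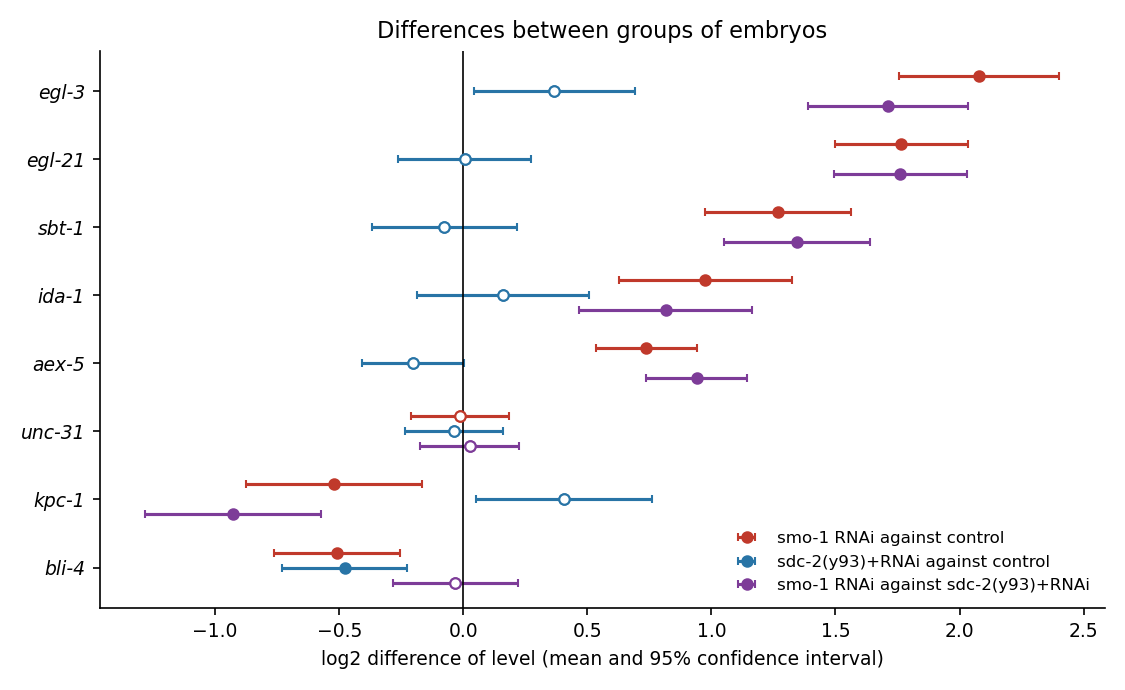
Log2 difference of level (x axis, mean and 95% confidence interval of the limma fit) of the 8 genes (y axis) for smo-1 RNAi against control (red), sdc-2(y93)+RNAi against control (blue) and smo-1 RNAi against sdc-2(y93)+RNAi (purple). Filled points passed an adjusted p of 0.05. The red and purple points of egl-3, egl-21, sbt-1, ida-1 and aex-5 lie between 0.74 and 2.08, and their blue points between -0.20 and 0.37.

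The control arrays also differed among themselves in a shared way. Replicate 2 was the highest control array for both probe sets of egl-3 and for egl-21 and sbt-1. It also had the highest mean level of the control arrays in 13 of the 16 gene lists described below, among them pharynx markers (9.12 against 8.90 and 8.66), muscle markers (10.67 against 10.51 and 10.47) and FMRFamide-like precursor genes (7.32 against 7.02 and 6.93). It was the lowest for maternal transcripts (8.90 against 9.08 and 9.03) and early zygotic transcripts (7.11 against 7.26 and 7.36). Likeness over the 9 arrays was measured as the root mean square difference of log2 levels relative to the control mean. By this measure the nearest genes to egl-21 were nlp-6, a neuropeptide precursor gene, gegf-1 and the galectin gene lec-10, each at 0.12. Those nearest to egl-3 were nlp-33 and phat-6, each read by an _s_at probe set, and T10B10.4, at 0.12 to 0.15. Set against each other, egl-3 and egl-21 differed by 0.31, and egl-3 was at rank 211 of all genes in likeness to egl-21.

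Carboxypeptidase and amidation genes other than egl-21 moved both ways. Beside the list counts here and below, 17.8% of all genes were higher and 22.2% lower under smo-1 RNAi. In sdc-2(y93)+RNAi embryos these shares were 10.9% and 15.6%. Of 5 carboxypeptidase and amidation genes measured, 2 rose and 1 fell under smo-1 RNAi. Both that rose act in amidation: pgal-1, the gene of the lyase that completes it, rose by 2.29 ± 0.15 (limma adjusted p = 8.2e-07), and pghm-1, the gene of the monooxygenase that begins it, by 1.15 ± 0.10 (7.3e-06). A gene that joins both activities, pamn-1, differed by 0.03 (adjusted p = 0.93). Among the 5, sdc-2(y93)+RNAi embryos had 2 that rose and 2 that fell, and pghm-1 was lower by 0.88 (-0.88 ± 0.10, adjusted p = 0.00015). The D-type carboxypeptidase gene cpd-2 rose there by 0.92 ± 0.10 (adjusted p = 0.00015) and differed by 0.14 ± 0.10 in smo-1 RNAi embryos.

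Precursors of 2 families were counted in smo-1 RNAi embryos. Of 25 FMRFamide-like precursor genes 22 rose and 0 fell, with a median log2 difference of 1.25, and in sdc-2(y93)+RNAi embryos 6 rose and 0 fell with a median of 0.17. Examples are flp-5 (2.79 ± 0.15, limma adjusted p = 1.9e-07), flp-3 (2.57 ± 0.12) and flp-17 (2.36 ± 0.13), and flp-5 rose in sdc-2(y93)+RNAi embryos as well (1.13 ± 0.15, adjusted p = 0.00031). Of these genes 10 are X-linked. Of 24 insulin-like peptide genes 11 rose and 2 fell under smo-1 RNAi, with ins-30 at 2.39 ± 0.13, and 1 rose and 1 fell in sdc-2(y93)+RNAi embryos. Of the 24 genes, 12 lay in the range of the negative controls on every array. Among 9 genes of peptidases that break down secreted peptides 2 rose and 1 fell, the neprilysin genes nep-22 (1.16 ± 0.14), nep-11 (0.83 ± 0.18) and nep-1 (-0.37 ± 0.11). Scaled to autosomal genes, 2 peptidase genes were higher and 3 lower, and scaled to the bright ones 3 and 0. For the FMRFamide-like genes these scalings gave 21 higher and 1 lower, then 24 and 0, under smo-1 RNAi, and 7 and 0, then 15 and 0, in sdc-2(y93)+RNAi embryos. For the insulin-like genes they gave 8 and 2, then 16 and 2, and 2 and 1, then 9 and 1. Over all genes the autosomal scaling called 14% higher and 30.2% lower under smo-1 RNAi, and the bright one 29.0% and 14.6%. In sdc-2(y93)+RNAi embryos the autosomal scaling called 2260 of 17118 genes higher and 2220 lower. The bright one called 40.3% and 8.65% there.

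Genes of the vesicles' assembly and of their release moved both ways. Of 16 genes of dense-core vesicle biogenesis and maturation 3 rose and 7 fell under smo-1 RNAi, with a median of -0.27. They include rab-6.2, the gene of a Golgi GTPase (-1.02 ± 0.12, limma adjusted p = 4.7e-05), and vps-53, the gene of a tethering complex subunit (-0.88 ± 0.10). Against control, sdc-2(y93)+RNAi embryos had 6 that rose and 5 that fell, among them hid-1, a vesicle maturation gene, by 0.70 ± 0.08. Of 20 genes of vesicle transport, docking and release 10 rose and 2 fell under smo-1 RNAi (median 0.38), and 5 rose and 5 fell in sdc-2(y93)+RNAi embryos (median 0.11). The gene of the Gq protein subunit, egl-30, rose by 0.39 ± 0.12 in smo-1 RNAi and by 1.51 ± 0.12 in sdc-2(y93)+RNAi embryos (adjusted p = 0.022 and 2.5e-05). The syntaxin-binding gene unc-18 rose in both, by 0.81 ± 0.15 and 1.22 ± 0.15, and gsa-1, the gene of a stimulatory G protein subunit, fell in both, by -0.54 ± 0.14 and -1.0 ± 0.14. The balance of the biogenesis list depended on the scale, with 2 higher and 9 lower under smo-1 RNAi when scaled to autosomal genes and 5 and 4 when scaled to the bright ones, and for the release list these counts were 5 and 3, then 14 and 0. The sdc-2(y93)+RNAi counts were 6 and 3, then 6 and 1, for biogenesis and 6 and 5, then 12 and 4, for release. Among all genes the autosomal scaling called 14% higher and 30.2% lower under smo-1 RNAi, and the bright one 29.0% and 14.6%. In sdc-2(y93)+RNAi embryos the autosomal scaling called 2260 of 17118 genes higher and 2220 lower. The bright one called 40.3% and 8.65% there. Each of the 2 lists has 4 X-linked genes.

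Partners of the remaining convertase genes, aex-5, kpc-1 and bli-4, also were counted. Of 9 genes that act with aex-5 in defecation 6 rose and 0 fell under smo-1 RNAi, and 1 rose and 0 fell in sdc-2(y93)+RNAi embryos. Scaled to the bright autosomal genes, these counts were 7 and 0, and 6 and 0. The largest difference was that of nlp-40, the gene of the peptide that aex-5 is thought to mature, at 2.57 ± 0.16 (limma adjusted p = 6.6e-07), and it differed by -0.17 ± 0.16 in sdc-2(y93)+RNAi embryos. The levels of aex-1, aex-2, aex-4 and snt-2 lay in the range of the negative controls on all arrays, and aex-1 (0.32 ± 0.10) and aex-4 (0.30 ± 0.10) are among the 6 counted as higher. Of 6 genes known to act with kpc-1 in dendrite branching 0 rose and 3 fell under smo-1 RNAi, namely lect-2 (-1.18 ± 0.11), mnr-1 (-0.69 ± 0.09) and dma-1 (-0.59 ± 0.10). Of these 6 genes 1, lect-2, fell in sdc-2(y93)+RNAi embryos (-0.63 ± 0.11, adjusted p = 0.0019), and scaled to the bright autosomal genes 2 rose and 1 fell there. Of 18 cuticle and collagen maturation genes set beside bli-4 8 fell and 0 rose in smo-1 RNAi and 8 fell and 2 rose in sdc-2(y93)+RNAi embryos, and the collagen gene dpy-7 fell in both (-0.78 ± 0.10 and -1.03 ± 0.10). Scaled to the bright autosomal genes, the cuticle counts were 4 lower and 1 higher, then 3 lower and 4 higher. That scaling called 29.0% of all genes higher and 14.6% lower under smo-1 RNAi, and 40.3% and 8.65% in sdc-2(y93)+RNAi embryos.

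**Figure D4:**
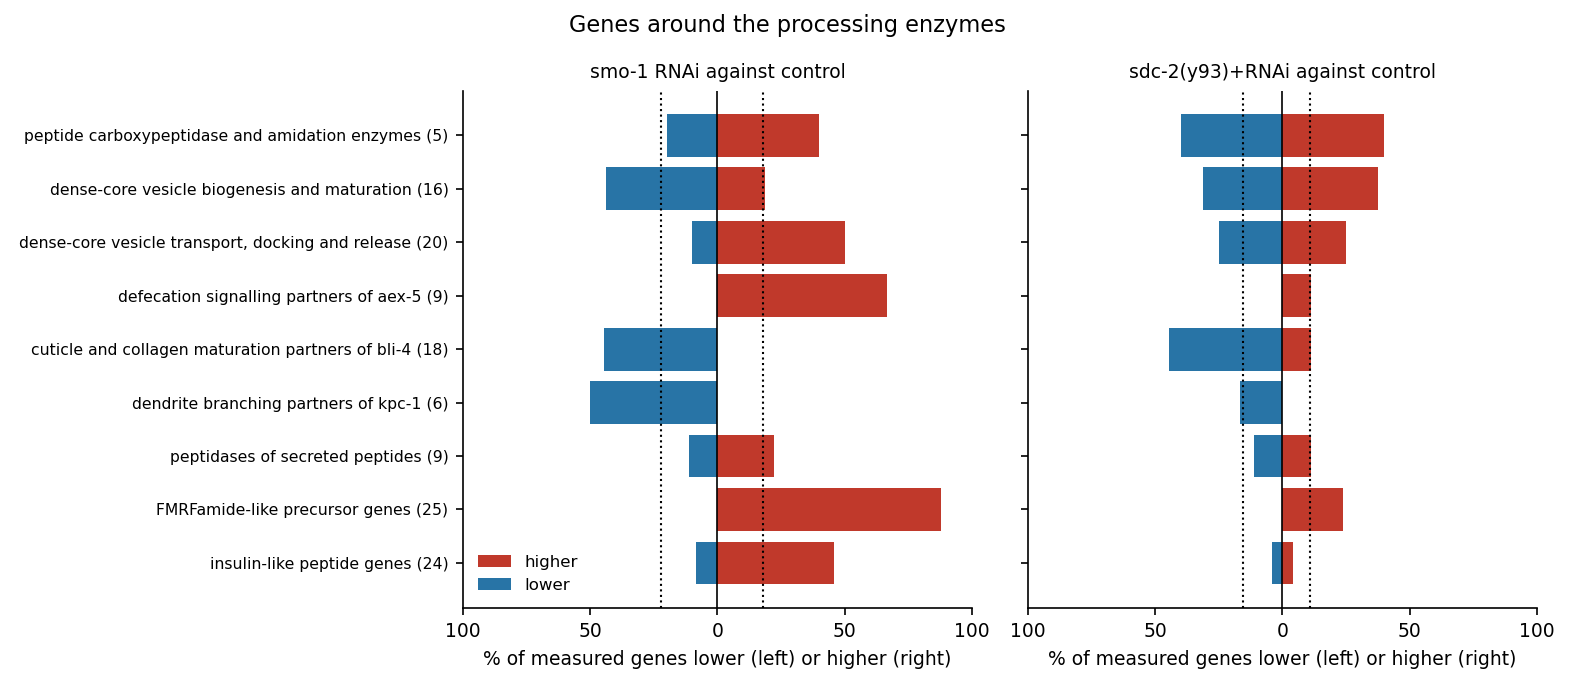
Share of the measured genes of 9 lists (y axis, number measured in brackets) that were lower (blue, to the left) or higher (red, to the right) at a limma adjusted p of 0.05, in percent (x axis), for smo-1 RNAi (left panel) and sdc-2(y93)+RNAi embryos (right panel) against control. Dotted lines mark the shares of all 17118 genes, 22.2% and 17.8% at left and 15.6% and 10.9% at right. The bar of the FMRFamide-like genes, 22 of 25 higher, is the longest at left.

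Markers of the tissues that hold these genes were counted beside the shares of all genes, 17.8% higher and 22.2% lower under smo-1 RNAi and 10.9% and 15.6% in sdc-2(y93)+RNAi embryos. Of 16 pan-neuronal markers 6 rose and 3 fell under smo-1 RNAi, with a median of -0.05, and 3 rose and 3 fell in sdc-2(y93)+RNAi embryos. Their mean level over the list was 8.84 to 9.12 on control, 8.93 to 9.11 on smo-1 RNAi and 9.0 to 9.17 on sdc-2(y93)+RNAi arrays, with rgef-1 alone in the range of the negative controls on all arrays. In this list unc-119 fell in both groups (-0.78 ± 0.12 and -0.74 ± 0.12). Under smo-1 RNAi rpm-1 fell (-0.50 ± 0.09), and it differed by 0.03 ± 0.09 in sdc-2(y93)+RNAi embryos. For syd-2 the difference was -0.16 ± 0.23 under smo-1 RNAi, and it rose by 1.32 ± 0.23 in sdc-2(y93)+RNAi embryos. These 3 have the lowest adjusted p of the list in either comparison with control. None of the 6 that rose under smo-1 RNAi is among them, so they do not stand for the list. The smo-1 RNAi counts turned to 3 higher and 6 lower when scaled to autosomal genes, and to 7 and 2 when scaled to the bright ones. These scalings called 14% of all genes higher and 30.2% lower, then 29.0% and 14.6%. The release list shares 6 genes with these markers.

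Of 16 intestine markers 8 rose and 1 fell under smo-1 RNAi, and their mean level was 8.80 to 8.87 against 8.01 to 8.16 on control arrays and 8.06 to 8.09 on sdc-2(y93)+RNAi arrays. Of 16 epidermis markers 0 rose and 10 fell under smo-1 RNAi, at mean levels of 10.21 to 10.29 against 10.60 to 10.70 in control, and in sdc-2(y93)+RNAi embryos 8 rose and 2 fell, at 10.85 to 10.96. Scaled to the bright autosomal genes, the epidermis counts were 1 higher and 4 lower, then 12 and 1. Of all genes that scaling called 29.0% higher and 14.6% lower, then 40.3% and 8.65%. Of the 16 epidermis markers 6 are X-linked. In sdc-2(y93)+RNAi embryos 10.9% of all genes but 6.75% of autosomal genes rose, and the part of X linkage in the epidermis counts was not tested. Of 14 body wall muscle markers 9 rose and 2 fell, and of 12 pharynx markers again 9 and 2, under smo-1 RNAi. Mean levels were 10.94 to 11.07 against 10.47 to 10.67 in control for muscle, and 9.39 to 9.60 against 8.66 to 9.12 for pharynx. On sdc-2(y93)+RNAi arrays these were 10.45 to 10.51 and 8.82 to 8.90.

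Germline and maternal transcripts and early zygotic transcripts, used here as marks of embryo age, differed too. The early zygotic list shares end-1 and end-3 with the intestine markers and elt-1 with the epidermis markers. Among 26 germline and maternal transcripts, smo-1 RNAi embryos had 5 that rose and 14 that fell, and among 20 early zygotic transcripts 0 and 10. The sdc-2(y93)+RNAi counts were 8 and 1, and 3 and 1. In the germline and maternal list glh-1 rose by 3.47 ± 0.18 under smo-1 RNAi, while puf-3 (-1.31 ± 0.16) and cpg-1 (-1.09 ± 0.15) fell. Scaled to the bright autosomal genes, the maternal counts were 6 and 11, then 15 and 1, and the early zygotic counts 0 and 9, then 9 and 0. Of all genes that scaling called 29.0% higher and 14.6% lower, then 40.3% and 8.65%. Mean levels of the maternal list were 8.90 to 9.08 on control, 8.71 to 8.84 on smo-1 RNAi and 9.07 to 9.39 on sdc-2(y93)+RNAi arrays. Those of the early zygotic list were 7.11 to 7.36, 6.54 to 6.76 and 7.28 to 7.37, with 7 of its genes in the range of the negative controls throughout. The part of tissue markers and of embryo age in the changes of egl-3, egl-21, sbt-1, ida-1, aex-5, kpc-1 and bli-4 was not tested.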

How the data were processed

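The authors deposited log2 values; the submitters' processing notes name RMA and Expression Console as tools, and their version and options are not given in the sources. By its design RMA equalises the distributions of the arrays and compresses differences of dim genes. Array medians lay between 6.51 and 6.72, and 3 arrays a group limit the precision. Groups and replicate numbers came from sample titles. Of 22625 probe sets, 77 are controls, 887 had several genes and 895 none in the platform annotation. For the other 20766, RefSeq (WBcel235) gave symbols and chromosomes for 20701. Where a gene had several probe sets, the one brightest on average over the 9 arrays stood for it. limma 3.58.1 in R 4.3.3 (lmFit, eBayes; 9 arrays, 6 residual degrees of freedom, no covariate, two-sided) was used with Benjamini-Hochberg adjustment over all genes, or over all probe sets where stated; errors of differences are standard errors. Alternatives were other probe set choices, scalings, low-level filters, variance models, a threshold of 0.01, a replicate block and leaving out arrays. The steps were tested on simulated data. The 8 genes and the gene lists were chosen with earlier results of these data known. From a list, at most 3 genes were named, those called with the lowest adjusted p in either comparison with control; pamn-1 and those listed as lying in the range of negative controls were named after their values were seen.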

Additional observations from a re-analysis of the deposited data

Results flagged for a closer look

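A signal stands in data that no comparison above uses. The median level of the 18 hybridisation control probe sets was higher on the sdc-2(y93)+RNAi arrays than on control arrays by 3.76 on the log2 scale. On smo-1 RNAi arrays their median was 5.13, against 5.30 on control arrays. Both comparisons of sdc-2(y93)+RNAi embryos use these arrays. For smo-1 RNAi against control they entered the shared estimate of spread, the choice of the brightest probe set and the median level of genes. Whether RMA was run on all arrays together is not given in the sources used here. With only the 6 arrays compared, egl-3, egl-21, sbt-1, ida-1 and aex-5 rose in smo-1 RNAi embryos.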

How the results depend on the processing

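The rises of egl-3, egl-21, sbt-1, ida-1 and aex-5 in smo-1 RNAi embryos kept their direction and their call under each alternative that gave a value, with log2 differences of 1.93 to 2.28, 1.63 to 1.97, 1.14 to 1.47, 0.84 to 1.18 and 0.59 to 0.94 and a highest adjusted p of 0.0032. Without _s_at and _x_at probe sets, which leaves 4 genes to test, 3 were called and 1 was higher in smo-1 RNAi embryos, and against sdc-2(y93)+RNAi embryos 3 were called, 1 higher and 2 lower. Counts of genes lower in smo-1 RNAi embryos were 0 under scaling to the bright autosomal genes, 1 at an adjusted p of 0.01 and 1 to 2 with each array left out. In sdc-2(y93)+RNAi embryos 2 genes were called with the mean of all probe sets, array weights, only the 6 arrays compared, genes above the median level or either scaling to autosomal genes, and 1 to 2 with each array left out. There, 1 was higher without related-transcript probe sets, with array weights, with 6 arrays, above the median level or scaled to autosomal genes, 2 scaled to the bright ones and 0 to 1 with each array left out. Of the genes lower there, 2 were called with the mean of probe sets and 0 without related-transcript probe sets or scaled to the bright autosomal genes. Directions turned for small or disputed differences, and the cause was not tested. In smo-1 RNAi embryos, unc-31 was at 0.19 under the bright autosomal scaling and at 0.01 without smo-1 RNAi replicate 3. In sdc-2(y93)+RNAi embryos that scaling gave 0.18 for sbt-1, 0.22 for unc-31 and 0.06 for aex-5, scaling to all autosomal genes 0.03 for unc-31, and array weights 0.03 for sbt-1 and -0.07 for ida-1. Leaving out an array gave -0.08 to 0.13 for egl-21 (-0.03 without control replicate 1 and -0.06 without sdc-2(y93)+RNAi replicate 3), -0.18 to 0.05 for sbt-1, -0.02 to 0.29 for ida-1 and -0.09 to 0.04 for unc-31. The mean of probe sets gave -0.33 for kpc-1, and the plain probe set 0.64 for bli-4. Between the perturbed groups, unc-31 was at -0.17 scaled to autosomal genes and at -0.04 scaled to the bright ones. With each array left out, unc-31 was there at -0.05 to 0.08 and bli-4 at -0.10 to 0.10. The plain probe set of bli-4 gave -1.17 there and passed the threshold. Deviations of samples of the same replicate number had correlations of -0.222 to 0.243 over 9 pairs. Control with sdc-2(y93)+RNAi arrays gave 0.044, 0.243 and 0.185, and control with smo-1 RNAi arrays 0.073, -0.129 and -0.148. Between the perturbed groups they were 0.068, -0.222 and 0.16. A fit with a replicate block called 7, 1 and 6 genes, as without it. Signal over background limits unc-31 and aex-5.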
